A study of Mus musculus with 4 samples.

Results

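Middle-score enterocytes are absorptive cells of the irradiated mouse small intestine, defined by where they stand on a transcript score and not by a cluster. Enterocytes were barcodes with at least 1000 UMIs (unique molecular identifiers, 1 per captured transcript), no fewer than 500 genes and no more than 25% mitochondrial UMIs, in which Apoa1, Apoa4, Fabp1, Fabp2 and Rbp2 made up at least 2% of UMIs. Goblet cell genes (Muc2, Tff3, Fcgbp, Zg16 and Clca1) had to stay under 2%, and the ileal gene Fabp6 under 3 per 10000 UMIs. The 15% with the most Duox2 and Duoxa2 were dropped, the lowest dropped cell having 9.68 per 10000. The remaining 5600 enterocytes, out of 9591 barcodes within the limits, were ranked by the mean log level of Ada, Nt5e, Slc28a2, Egfr and Klf4 minus that of Reg1, Reg3b, Reg3g, Plac8 and Lypd8. The 1866 cells in the middle of the ranking (1009 WT and 857 KO) are the subject here, between 1867 low-score and 1867 high-score cells.

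The study compared wild-type (WT) mice with VilCreIfnlr1fl/fl mice (KO), in which Cre under the Villin promoter deletes the floxed receptor gene for type III interferon (interferon lambda) in intestinal epithelial cells. All 6 mice, 3 of each genotype, had received 11 Gy of gamma rays with lead over the head, thorax and upper limbs, so no unirradiated mouse is compared here, and age and sex are not given in the sources used here. The design text puts collection 96 h after irradiation, and the protocol for extraction puts it at 3 days. Live EPCAM-positive, CD45-negative cells were sorted, each mouse was marked with a hashtag (a barcode carried on an antibody), and the 3 mice of a genotype were pooled into 1 single-cell 3′ RNA library. Genotype and pool therefore cannot be told apart in any value below, and p-values compare mice within 2 pools.

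Enterocytes are born in the crypt, move up the villus over their short life and are shed at its tip. On the way they turn from antimicrobial gene expression at the bottom to sugar, peptide and fat absorption in the middle and to purine breakdown and adhesion genes at the tip. Type III interferon acts mainly on epithelial cells: its receptor, made of Ifnlr1 and Il10rb, signals through Jak1 and Tyk2 to a complex of transcription factors, which binds a DNA element (the interferon-stimulated response element, ISRE) in the promoters of antiviral genes.

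A single hashtag was found in 185, 117 and 274 middle-score cells of WT mice 1 to 3 (WT1 to WT3) and in 233, 117 and 207 of KO mice 1 to 3 (KO1 to KO3). Another 384 WT and 252 KO cells were assigned no hashtag, and 49 and 48 were assigned more than 1. None of these entered the main comparisons. An alternative rule, with the leading hashtag at least 3 times the next, placed 201, 142 and 460 WT cells and 287, 200 and 271 KO cells. A lack of assignment is therefore not a lack of hashtag counts. Pairs of cells from the same mouse cannot be seen by hashtag and remain in. The median depth per cell lay between 7875 and 9739 UMIs in all 6 mice, and the sums per mouse between 1232283 and 2642589 UMIs. The median mitochondrial share was 17.2% to 18.6% in WT and 15.8% to 16.5% in KO mice, without overlap. One barcode was shared by the libraries among these cells. Levels below are in CPM, the UMI count of a gene in the summed cells of a mouse relative to the mouse's total, scaled by edgeR's trimmed mean of M values (TMM).

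The score ran from −5.20 to 3.61. The lowest member stood at 0.700 and the cell just below the group at 0.698, and the highest member at 1.916 and the cell just above at 1.918, so the group has no natural border. Of 1753 members with at least 2000 UMIs, 1343 (76.6%) stayed in the group when every cell was thinned to 2000 UMIs and ranked again, while 236 moved to the high-score and 174 to the low-score group.

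The genes that should mark mid-villus enterocytes did not peak in these cells. Only Slc5a1, the sodium-coupled glucose transporter of the brush border, was high, at 617 to 1261 CPM per mouse, overlapping the low-score cells (595 to 1304 CPM). In high-score cells it stood at 354 to 809 CPM. Slc2a2, the glucose transporter of the basolateral side, stood at 10.3 to 20.5 CPM against 126 to 294 CPM in low-score cells. Sucrase-isomaltase (Sis), a disaccharide-splitting enzyme, stood at 37.6 to 81.3 CPM against 255 to 1641 CPM in low-score cells. The fatty acid carrier Fabp1, itself used in the gate, stood at 553 to 1208 CPM against 5039 to 26422 CPM. For Slc2a2, Sis and Fabp1 every mouse's low-score value lay above all middle-score values. At least 1 UMI was found in 94.5% of the members for Slc5a1, 89.9% for Fabp1, 24.9% for Sis and 6.91% for Slc2a2. The markers thus go against the name mid-villus, and the cells are called by their score.

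**Figure D1:**
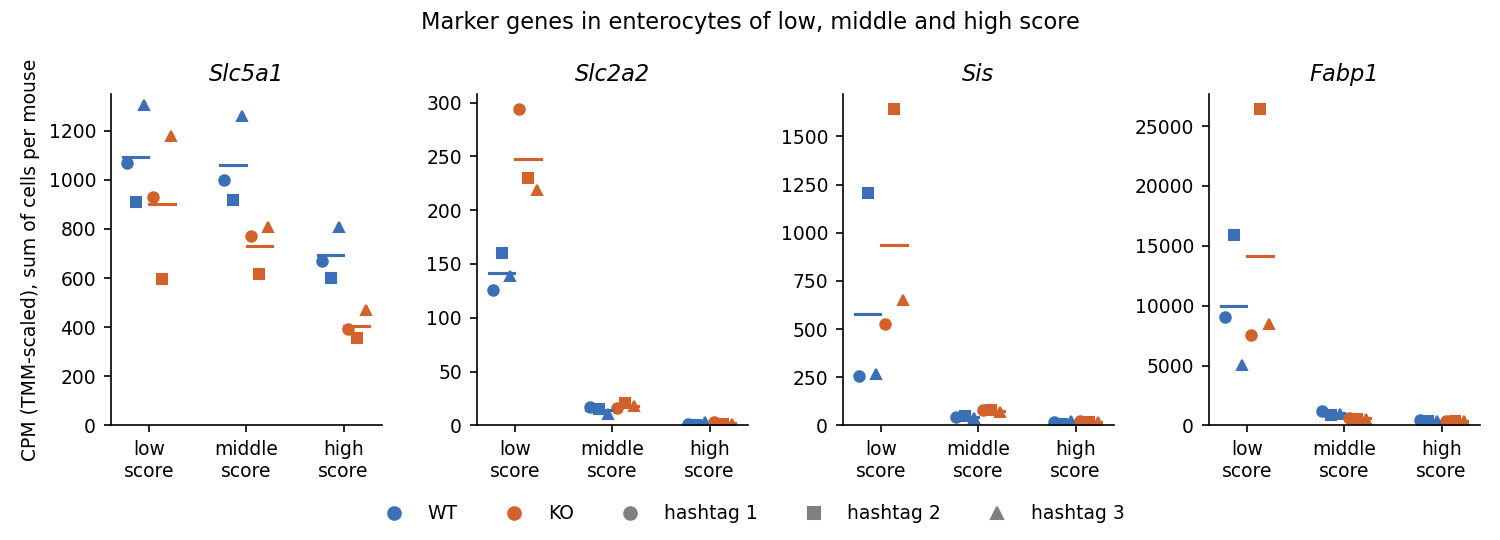
Scaled CPM (linear axes from 0) of the 4 marker genes in low-, middle- and high-score enterocytes, 1 point per mouse (n = 3 WT, blue, and 3 KO, orange), with bars at genotype means and a symbol for each hashtag number. Slc2a2, Sis and Fabp1 are highest in low-score cells in every mouse, and only Slc5a1 stays at 617 CPM or more in the middle-score cells.

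Along the score most genes were intermediate in these cells. Of 2715 genes with a mean of at least 50 CPM, 2158 (79.5%) lay between their low-score and high-score means, 1380 of them rising and 778 falling towards high scores. A further 307 were highest and 250 lowest in the middle, mostly by little. These orders are descriptions, since the groups were drawn from the same transcripts. Among the genes highest in the middle were Aldh4a1, a mitochondrial enzyme of proline breakdown (134 CPM against 92.3 in low-score and 96.5 in high-score cells), Pmp22, a membrane protein (316 against 138 and 237), and Mertk, a receptor for dying cells (227 against 171 and 169). Cobl, an actin nucleator of the brush border, stood at 566 CPM against 433 and 373. Naip5, a sensor of bacterial flagellin, stood at 122 CPM against 89.8 and 90.1. The troughs included the ferritin heavy chain Fth1 (1665 CPM against 6184 and 2479) and the sulfotransferase Sult1d1 (101 against 221 and 153). Sst, the hormone somatostatin, was the only gene more than 1.5-fold above both neighbours, and 2230 of its 2242 UMIs in KO2 came from 1 cell.

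Between the genotypes, 408 of 7433 genes tested differed (5.49%) at an adjusted p under 0.05 (edgeR quasi-likelihood F test, Benjamini-Hochberg). In KO mice 246 were lower (3.31%) and 162 higher (2.18%), 94 and 61 of them by at least 2-fold. The mice of the 2 genotypes did not overlap for 398 of the 408, against 23.4% of all genes tested (11.8% lower and 11.6% higher in KO). The median log2 fold change of all genes was 0.01. The number of calls fell to 194 without WT3, 229 without KO1 and 257 without KO2. With cells of at most 15% mitochondrial UMIs, which left 54 to 136 cells per mouse, 82 genes differed, 74 of them among the 408. Of the 22 tested genes that the cell selection used, 4 were called. They are not read as findings.

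The targeted gene Ifnlr1 (ENSMUSG00000062157, chromosome 4, 135686287 to 135708181, GRCm38) stood at 34.0, 61.1 and 45.5 CPM in WT and 48.8, 31.6 and 31.5 CPM in KO mice. The genotypes overlapped, and the log2 fold change was −0.29 (SE 0.23, adjusted p = 0.549 by edgeR). Which exons are floxed is not given in the sources used here, and a 3′ library may not read them, so this value is no check of the deletion. Of the 9 genes for interferon receptors and their kinases, only the kinase Jak2 was called, at 412, 428 and 407 CPM in WT and 340, 323 and 305 CPM in KO mice. Its call was lost whichever mouse was left out, with adjusted p from 0.0725 to 0.137.

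Interferon-stimulated genes, which encode antiviral and signalling proteins made in response to interferon, fell in KO mice across most of the list. Of 45 genes tested from a list of 57, 35 were called lower and 0 higher, against 3.31% of all genes called lower, and the list's median log2 fold change was −1.21 against 0.01 for all genes. With at most 15% mitochondrial UMIs 21 of 45 were lower, where 59 of 6584 of all genes were. With cells thinned to 2000 UMIs 19 of 40 were lower, where 116 of 4134 of all genes were. In both settings 0 of the list were higher. The list was drawn up with results of these samples known, so its direction is not independent evidence.

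Promoters of 4 of these genes are shown because the factor downstream of the receptor binds such sequences. They run from 250 bases before to 50 after the transcription start (RefSeq, GRCm38.p6), 5′ to 3′ on the gene's strand, and capitals mark the ISRE core (GAAA, any 2 bases, GAAA) or its reverse complement, with overlapping matches run together. Isg15 (chr4:156200769-156201068, minus strand) encodes a ubiquitin-like protein and held 3 matches. Ifit1 (chr19:34640639-34640938, plus strand) encodes a binder of foreign RNA ends and held 2. Oas1a (chr5:120907476-120907775, minus strand) encodes a synthetase of the messenger that activates RNase L and held 2. Rsad2 (chr12:26456403-26456702, minus strand) encodes viperin, an antiviral enzyme, and held 1.
Isg15: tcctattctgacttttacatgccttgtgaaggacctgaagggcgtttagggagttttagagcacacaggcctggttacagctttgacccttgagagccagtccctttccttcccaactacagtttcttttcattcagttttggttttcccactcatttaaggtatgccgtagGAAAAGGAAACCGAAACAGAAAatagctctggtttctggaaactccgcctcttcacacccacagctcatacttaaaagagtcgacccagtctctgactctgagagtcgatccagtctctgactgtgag
Ifit1: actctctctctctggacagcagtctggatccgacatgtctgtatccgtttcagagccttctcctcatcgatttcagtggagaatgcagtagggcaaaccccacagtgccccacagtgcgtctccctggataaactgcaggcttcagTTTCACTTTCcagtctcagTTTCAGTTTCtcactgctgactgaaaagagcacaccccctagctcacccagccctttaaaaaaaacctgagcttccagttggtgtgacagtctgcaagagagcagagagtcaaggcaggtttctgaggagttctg
Oas1a: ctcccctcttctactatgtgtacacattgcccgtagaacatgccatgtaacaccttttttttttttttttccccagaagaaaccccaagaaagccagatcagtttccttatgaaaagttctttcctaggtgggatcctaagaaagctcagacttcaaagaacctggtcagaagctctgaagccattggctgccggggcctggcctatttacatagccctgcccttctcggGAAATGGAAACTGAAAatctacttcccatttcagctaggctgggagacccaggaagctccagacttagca
Rsad2: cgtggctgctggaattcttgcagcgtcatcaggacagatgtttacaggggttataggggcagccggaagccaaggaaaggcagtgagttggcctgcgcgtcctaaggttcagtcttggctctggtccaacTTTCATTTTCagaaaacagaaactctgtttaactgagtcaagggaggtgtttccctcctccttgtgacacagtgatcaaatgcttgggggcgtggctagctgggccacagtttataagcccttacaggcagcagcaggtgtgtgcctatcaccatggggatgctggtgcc

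The core, searched on both strands, was present in 12 of 29 such promoters of the 35 lowered list genes (41.4%). It was present in 1 of 8 promoters of list genes that were tested and not called. Of all genes called lower, 24 of 188 promoters held it (12.8%), and these 24 include the 12 of the list. Of genes called higher, 4 of 123 promoters held it (3.25%). Of 27025 promoters of all genes, 1079 held it (3.99%). A match is a run of letters and shows no binding.

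The largest differences of the list were in genes that KO mice had at a few CPM, while Isg15 stayed abundant. Isg15, whose promoter held 3 cores, stood at 392, 473 and 549 CPM in WT and 130, 91.7 and 90.8 CPM in KO mice. The lowest WT mouse lay far above the highest KO mouse, and the log2 fold change was −2.17 (SE 0.16, adjusted p = 2.79e-06 by edgeR). Ifit1 stood at 74.4, 136 and 109 CPM in WT and 13.3, 6.93 and 5.56 CPM in KO mice (log2 fold change −3.56, SE 0.29, adjusted p = 5.19e-06 by edgeR). Oas1a stood at 30.9, 44.8 and 45.1 CPM in WT and 2.22, 2.31 and 3.24 CPM in KO mice (log2 fold change −3.91, SE 0.30, adjusted p = 4.03e-06 by edgeR). No WT mouse overlapped a KO mouse for any of the 3 genes. Oas1a and its neighbours are near-identical copies, so reads could be divided among them in counting. Rsad2 varied more among WT mice, at 22.7, 138 and 63.7 CPM, than the other genes of this group, and stood at 3.99, 11.6 and 1.85 CPM in KO mice (log2 fold change −3.84, SE 0.61, adjusted p = 0.00194 by edgeR). Its WT and KO values did not overlap.

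Further genes of the list had the same separation. Rtp4, a chaperone of receptors that is also antiviral, fell by 3.71 on the log2 scale. Herc6, a ligase that attaches the Isg15 protein, fell by 3.68. Usp18, which removes it again and restrains the receptor, fell by 3.36. Oas2, another synthetase of the RNase L pathway, fell by 3.80. Each of these 4 kept its call whichever mouse was left out and with at most 15% mitochondrial UMIs. Irf7, a transcription factor that amplifies the response, stayed well expressed, at 399, 332 and 466 CPM in WT and 232, 238 and 222 CPM in KO mice. Its log2 fold change was −0.80 (SE 0.12, adjusted p = 0.00161 by edgeR). Ifi27l2b, a mitochondrial protein gene, was among the most abundant of the list and stood at 752, 817 and 751 CPM in WT and 386, 327 and 346 CPM in KO mice. The log2 fold change was −1.13 (SE 0.10, adjusted p = 1.15e-05 by edgeR), with no overlap. The 10 genes not called included Nmi, at a log2 fold change of 0.04, and Adar, the RNA editing enzyme, at −0.32, both named here after their values were seen.

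**Figure D2:**
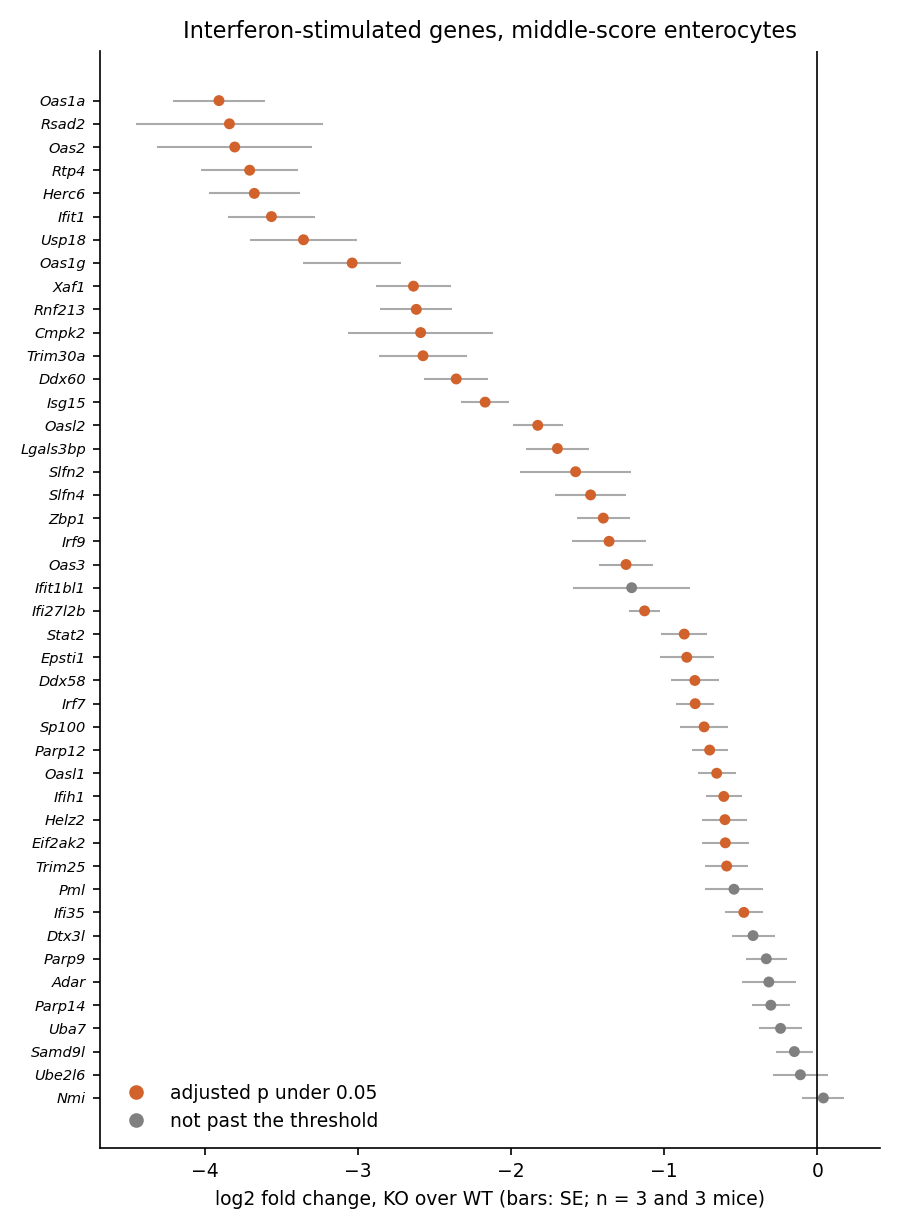
Log2 fold change (KO over WT, bars: SE, n = 3 and 3 mice) of interferon-stimulated genes tested in middle-score enterocytes, sorted (1 of the 45 is not shown), with orange points for adjusted p under 0.05 by edgeR. All orange points shown lie below 0, and the list's median over the 45 genes is −1.21.

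Antigen presentation genes were lower in 6 of 19 tested, with 0 higher, where 3.31% of all genes were lower. The list median was −0.46 against 0.01 for all genes. The largest difference was in Cd74, the chaperone of MHC class II, at 70.0, 323 and 225 CPM in WT and 13.8, 6.16 and 5.56 CPM in KO mice. WT1 was the lowest WT mouse and still above all KO mice, and the log2 fold change was −4.52 (SE 0.49, adjusted p = 7.87e-05 by edgeR). The class II chain H2-Ab1 fell by 2.52 and the peptide transporter Tap1 by 1.71 on the log2 scale. B2m, the light chain of MHC class I, differed less, at 1215, 1414 and 1389 CPM in WT and 971, 927 and 927 CPM in KO mice (log2 fold change −0.51, SE 0.10, adjusted p = 0.00671 by edgeR), and had an adjusted p of 0.051 with at most 15% mitochondrial UMIs. Class I genes are a family of similar copies whose reads could be divided. The immune cell markers Ptprc, Cd3e, Cd3g, Lyz2, S100a8, S100a9 and Cd52 summed to 0.812 to 4.20 CPM (without TMM scaling) in WT mice. In KO mice they summed to 3.16 to 14.6 CPM, and Cd3e and Cd3g were at 0 in all mice. Which cells the class II transcripts came from was not tested. The list's count rose to 11 of 25 without KO2 and 11 of 24 without WT1. It fell to 4 of 19 without WT3 and to 4 of 19 by DESeq2. With at most 15% mitochondrial UMIs it was 4 of 18, and with cells thinned to 2000 UMIs 3 of 14. Of all genes, 164 of 7937 were lower without KO2, 200 of 8003 without WT1, 124 of 7505 without WT3 and 59 of 6584 at the 15% limit. By DESeq2 206 of 7433 were lower, and with thinning 116 of 4134.

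Genes of pyroptosis and other cell death, the process named in the study's title, moved in both directions. Of 19 tested, 2 were lower and 2 higher in KO mice, where 3.31% of all genes were lower and 2.18% higher, and the list median was 0.07 against 0.01. Zbp1, a sensor of nucleic acids that starts cell death and is itself interferon-stimulated, stood at 78.2, 103 and 117 CPM in WT and 41.3, 33.9 and 37.5 CPM in KO mice. The values did not overlap, and the log2 fold change was −1.40 (SE 0.17, adjusted p = 0.000229 by edgeR). Nlrp9b, an inflammasome sensor of intestinal cells, was higher, at 391, 401 and 337 CPM in WT and 559, 520 and 520 CPM in KO mice (log2 fold change 0.51, SE 0.10, adjusted p = 0.00978 by edgeR). That call was lost without WT3 (adjusted p = 0.0566) and with at most 15% mitochondrial UMIs (adjusted p = 0.0966). Naip6 was higher by 0.53 and lost its call on leaving out any 1 of 5 mice (all but WT2), with adjusted p up to 0.164. Gsdmd, the pore-forming gasdermin, had a log2 fold change of 0.07 (SE 0.12) and Casp8 of −0.06 (SE 0.10), and neither was called.

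Of the 9 sugar digestion and uptake genes tested, 2 were lower and 1 higher, where 3.31% of all genes were lower and 2.18% higher. Sis rose while Slc5a1 and Mgam fell. It stood at 43.5, 50.5 and 39.3 CPM in WT and 83.9, 88.6 and 74.2 CPM in KO mice (log2 fold change 0.90, SE 0.15, adjusted p = 0.00302 by edgeR). The genotypes did not overlap, but the log2 fold change was 0.31 when the libraries were ranked apart, and the adjusted p was 0.565 with at most 15% mitochondrial UMIs. Slc5a1 stood at 1053, 998 and 1316 CPM in WT and 821, 673 and 856 CPM in KO mice (log2 fold change −0.52, SE 0.12, adjusted p = 0.0233 by edgeR). Its call was lost without KO1, KO2 or WT3, with adjusted p up to 0.124, and at the same mitochondrial limit (adjusted p = 0.193). Mgam, the maltase-glucoamylase of the brush border, fell by 0.55 (SE 0.10, adjusted p = 0.00668 by edgeR), with an adjusted p of 0.161 at the 15% limit. Slc2a2 had a log2 fold change of 0.40 (SE 0.26) and Lct, lactase, of −0.02 (SE 0.15), neither called.

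Among absorptive genes, a transporter and a peptidase had the rises of smallest adjusted p. Slc34a2, a phosphate transporter of the brush border, stood at 429, 449 and 473 CPM in WT and 842, 802 and 881 CPM in KO mice. Every KO mouse lay above every WT mouse, and the log2 fold change was 0.90 (SE 0.10, adjusted p = 6.58e-05 by edgeR). Naaladl1, an aminopeptidase of the brush border, stood at 269, 345 and 322 CPM in WT and 668, 663 and 596 CPM in KO mice (log2 fold change 1.04, SE 0.11, adjusted p = 6.58e-05 by edgeR). Npc1l1, the cholesterol uptake protein, rose by 0.65 (SE 0.10, adjusted p = 0.00203 by edgeR). These 3 calls were kept whichever mouse was left out and with at most 15% mitochondrial UMIs. In the other direction, Tmprss15, the enteropeptidase that activates trypsin, stood at 188, 366 and 276 CPM in WT and 125, 112 and 140 CPM in KO mice. Its log2 fold change was −1.12 (SE 0.19, adjusted p = 0.00271 by edgeR) and was −0.21 with at most 15% mitochondrial UMIs. The calcium pump Atp2b1 fell by 0.94, with −0.56 and no call at that limit. Amino acid transporters were higher in 3 of 10 and lower in 0, against 2.18% and 3.31% of all genes, with a list median of 0.14. The 3 were Slc43a2 (log2 fold change 0.72), Slc6a20a (0.81) and Slc7a9 (0.38). Slc43a2 lost its call without KO1, KO2 or WT3 (adjusted p up to 0.0943), Slc6a20a without KO1, KO3, WT1 or WT3 (up to 0.119) and Slc7a9 whichever mouse was left out (0.0669 to 0.178). Of peptide genes 1 of 14 was lower and 2 higher, of lipid absorption genes 1 of 20 each way, and of brush border structure genes 1 of 16 each way.

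Of metabolic genes, 3 of 12 in sugar metabolism fell and 1 rose, and 3 of 15 in xenobiotic metabolism fell, against 3.31% of all genes lower and 2.18% higher. None of these calls was kept with at most 15% mitochondrial UMIs (adjusted p from 0.107 for Pck1 to 0.452 for Mlxipl by edgeR). The rise, in Mlxipl, lost its call whichever mouse was left out, and Pck1 lost its call without any 1 of 5 mice (all but WT2). Cyp3a11 lost its call without KO1, KO2 or KO3. Acadl, a mitochondrial enzyme of fat oxidation, stood at 211, 147 and 227 CPM in WT and 91.4, 73.2 and 95.5 CPM in KO mice (log2 fold change −1.17, SE 0.16, adjusted p = 0.000655 by edgeR), without overlap. It was the only one called of 10 fat oxidation genes. The drug-metabolizing enzyme Cyp3a13 fell by 0.63 (SE 0.10) and was not called with at most 15% mitochondrial UMIs (adjusted p = 0.141). Hk2, the hexokinase that starts glycolysis, fell by 1.86 (SE 0.39), with an adjusted p of 0.343 at that limit and no call by DESeq2. Cdkn1a, a p53 target that stops the cell cycle, stood at 417, 402 and 463 CPM in WT and 249, 227 and 263 CPM in KO mice. It was the only one called of 10 p53 targets, and the log2 fold change was −0.80 (SE 0.11, adjusted p = 0.000479 by edgeR) and no overlap. No gene was called of 7 cholesterol synthesis genes, 6 cell cycle genes or 6 retinoid genes.

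Mt1, the metal-binding protein metallothionein 1 (chromosome 8, 94179082 to 94180327), had the largest rise after Ghrl (below) among called genes with at least 20 CPM in a genotype and no overlap. It stood at 61.1, 57.0 and 50.9 CPM in WT and 561, 743 and 499 CPM in KO mice. All KO mice lay far above all WT mice, and the log2 fold change was 3.42 (SE 0.16, adjusted p = 1.72e-08 by edgeR). The cell with most Mt1 held no more than 7.47% of the UMIs of a KO mouse. Mt1 was the only one called of 7 metallothionein and zinc genes. Arg2, the mitochondrial arginase, rose as well, from 15.1, 22.0 and 16.5 CPM to 43.5, 37.0 and 45.4 CPM (log2 fold change 1.27, SE 0.20, adjusted p = 0.00173 by edgeR), but was not called with at most 15% mitochondrial UMIs (adjusted p = 0.128). Pigr, which carries immunoglobulin A across the cell, stood at 110, 279 and 145 CPM in WT and 36.8, 66.3 and 41.7 CPM in KO mice. It fell by 1.90 (SE 0.29, adjusted p = 0.00161 by edgeR).

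Axin2 and Rnf43, both feedback inhibitors that Wnt signalling switches on in crypt cells, were lower in KO mice. Axin2 stood at 49.2, 49.7 and 50.9 CPM in WT and 11.5, 10.0 and 8.34 CPM in KO mice. The 3 mice of each genotype were close together and far from the other genotype, and the log2 fold change was −2.32 (SE 0.20, adjusted p = 9.79e-06 by edgeR). Rnf43 stood at 56.7, 64.4 and 45.1 CPM in WT and 19.1, 24.7 and 16.2 CPM in KO mice (log2 fold change −1.48, SE 0.21, adjusted p = 0.000669 by edgeR), a call lost when cells were thinned to 2000 UMIs. These were 2 of 4 stem cell list genes tested, where 3.31% of all genes were lower. The stem cell marker Olfm4 was low in all mice, at 3.15, 3.26 and 3.31 CPM in WT and 5.77, 6.93 and 7.42 CPM in KO mice. Its values went the other way from Axin2 and Rnf43 without overlap, but it was not called.

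Paneth cell transcripts were higher in the middle-score enterocytes of KO mice. Of 9 Paneth cell genes tested 5 were higher and 0 lower, where 2.18% of all genes were higher, and the list median was 1.20 against 0.01 for all genes, and 8 Paneth markers together summed to 307 to 343 CPM (without TMM scaling) in WT and 811 to 1529 CPM in KO mice. Defa30, a Paneth cell defensin, stood at 46.0, 37.5 and 40.9 CPM in WT and 178, 416 and 173 CPM in KO mice. All KO mice were above all WT mice, and the log2 fold change was 2.59 (SE 0.29, adjusted p = 0.000114 by edgeR). KO2 owed 309 of its 540 Defa30 UMIs to 1 cell and stood at 183 CPM without it (unscaled), while in KO1 and KO3 the leading cell held 1.75% and 2.14%. Lyz1, the Paneth lysozyme, stood at 26.5, 29.3 and 29.8 CPM in WT and 58.1, 83.2 and 59.3 CPM in KO mice (log2 fold change 1.20, SE 0.18, adjusted p = 0.00139 by edgeR). With at most 15% mitochondrial UMIs 1 of 8 Paneth genes was called higher, where 23 of 6584 of all genes were. The share of free or carried-over RNA in these values was not tested, and defensins are near-identical copies among which reads could be divided. On the same unscaled CPM, goblet markers, limited by the selection, summed to 1988 to 2223 CPM in WT and 2144 to 2288 CPM in KO mice, enteroendocrine markers to 55.2 to 282 and 82.3 to 176 CPM and tuft markers to 14.4 to 173 and 13.9 to 23.5 CPM, all with overlap.

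Hormone genes of enteroendocrine cells were scarce. Gip, a hormone released after sugar and fat, stood at 3.15, 0.815 and 4.96 CPM in WT and 20.4, 65.5 and 29.7 CPM in KO mice (log2 fold change 3.40, SE 0.50, adjusted p = 0.00108 by edgeR). Its UMIs came from 34 to 46 cells per KO mouse. Nts, neurotensin, had the lowest log2 fold change of the genes named (−4.74), but 543 of its 567 UMIs in WT3 came from 1 cell, and its call was lost without KO1, KO2, KO3 or WT3 (adjusted p up to 0.311). Ghrl, ghrelin, had the highest of them, with 52 of 64 UMIs in KO2 from 1 cell and no call without WT1 (adjusted p = 0.0529). Stromal markers summed to 1.58 CPM (unscaled) or less in every mouse, with Col1a1, Col3a1 and Vim at 0.

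**Figure D3:**
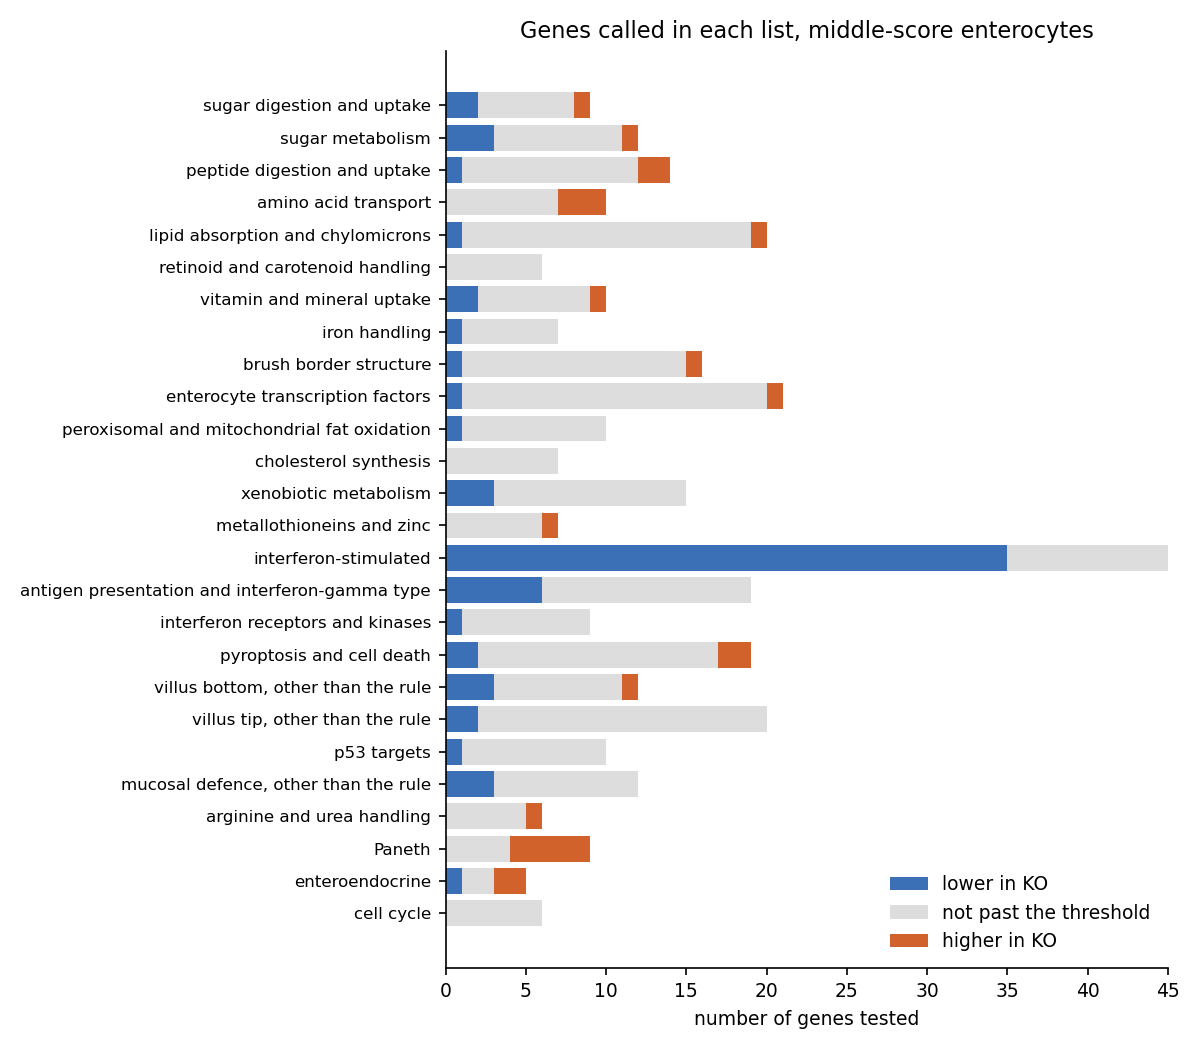
Number of genes tested in middle-score enterocytes in each list with at least 5 tested, divided into those lower in KO (blue), higher in KO (orange) and not past an adjusted p of 0.05 by edgeR (grey). The interferon-stimulated list has 35 of 45 genes lower, and the Paneth list has 5 of 9 higher.

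The same contrast was then read in the neighbouring groups. For the calls and list medians each group was filtered and scaled alone, while the CPM levels and the test between groups used all 3 groups scaled together. High-score cells had 490 of 6850 genes called (7.15%), 299 lower (4.36%) and 191 higher (2.79%), and low-score cells 1 of 9328 (0.0107%), which was Rsad2. In low-score cells 416 of the 9328 genes had an unadjusted p under 0.05 by edgeR, below the share of 0.05 expected if no gene differed. The difference in log2 fold change between middle-score cells and either neighbour was called for 0 of 9017 genes by edgeR. An unadjusted p under 0.05 was found for 412 genes against low-score and 234 against high-score cells, both below that share too. DESeq2 called 1 and 0. A gene called only in one group is therefore not shown to differ between groups.

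The interferon-stimulated list had medians of −1.43 in low-score, −1.21 in middle-score and −1.01 in high-score cells. Isg15 in low-score cells stood at 312, 334 and 521 CPM in WT and 67.7, 36.9 and 74.9 CPM in KO mice. In high-score cells Isg15 stood at 414, 345 and 706 CPM in WT and 142, 184 and 135 CPM in KO mice. The genotypes stayed apart in both. Mt1 overlapped only in low-score cells, at 163, 1047 and 352 CPM in WT and 883, 3113 and 1503 CPM in KO mice. Its KO minus WT log2 difference was larger in middle-score than in low-score cells by 1.55 (SE 0.67, unadjusted p = 0.0367, adjusted p = 0.914 by edgeR). Defa30 overlapped in low-score cells too, where WT2 stood at 352 CPM and the other mice at 27.8 to 113 CPM. In high-score cells it stood at 27.3 to 56.0 CPM in WT and 162 to 312 CPM in KO mice, without overlap. The Paneth list had medians of −0.98 in low-score, 1.20 in middle-score and 0.85 in high-score cells. Its members were mixed in low-score cells. There Defa22 and Defa21 stayed higher in KO mice (log2 fold changes 2.06 and 1.64), while Lyz1 and Defa24 were lower (−1.93 and −0.98). A reversal of the list is therefore not shown. Of 9 Paneth genes 0 were called in low-score cells, and 5 were called higher in high-score cells, where 2.79% of all genes were higher.

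Pigr was among the genes of smallest unadjusted p for a difference between groups. In low-score cells it stood at 445, 1010 and 380 CPM in WT and 284, 804 and 443 CPM in KO mice, which overlap, and the difference between its log2 fold changes was −1.55 (SE 0.32, unadjusted p = 0.000272, adjusted p = 0.613 by edgeR). Axin2 in low-score cells stood at 63.0, 41.3 and 72.3 CPM in WT and 34.6, 11.4 and 22.0 CPM in KO mice, without overlap, and the difference was −0.93 (SE 0.37, adjusted p = 0.914 by edgeR). Slc34a2 in low-score cells stood at 210, 163 and 270 CPM in WT and 366, 85.8 and 287 CPM in KO mice, with KO2 the lowest of all. KO2's low-score cells were also the deepest, at a median of 41434.5 UMIs per cell where the others lay between 10216.5 and 20419, and the part of depth in these values was not tested.

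**Figure D4:**
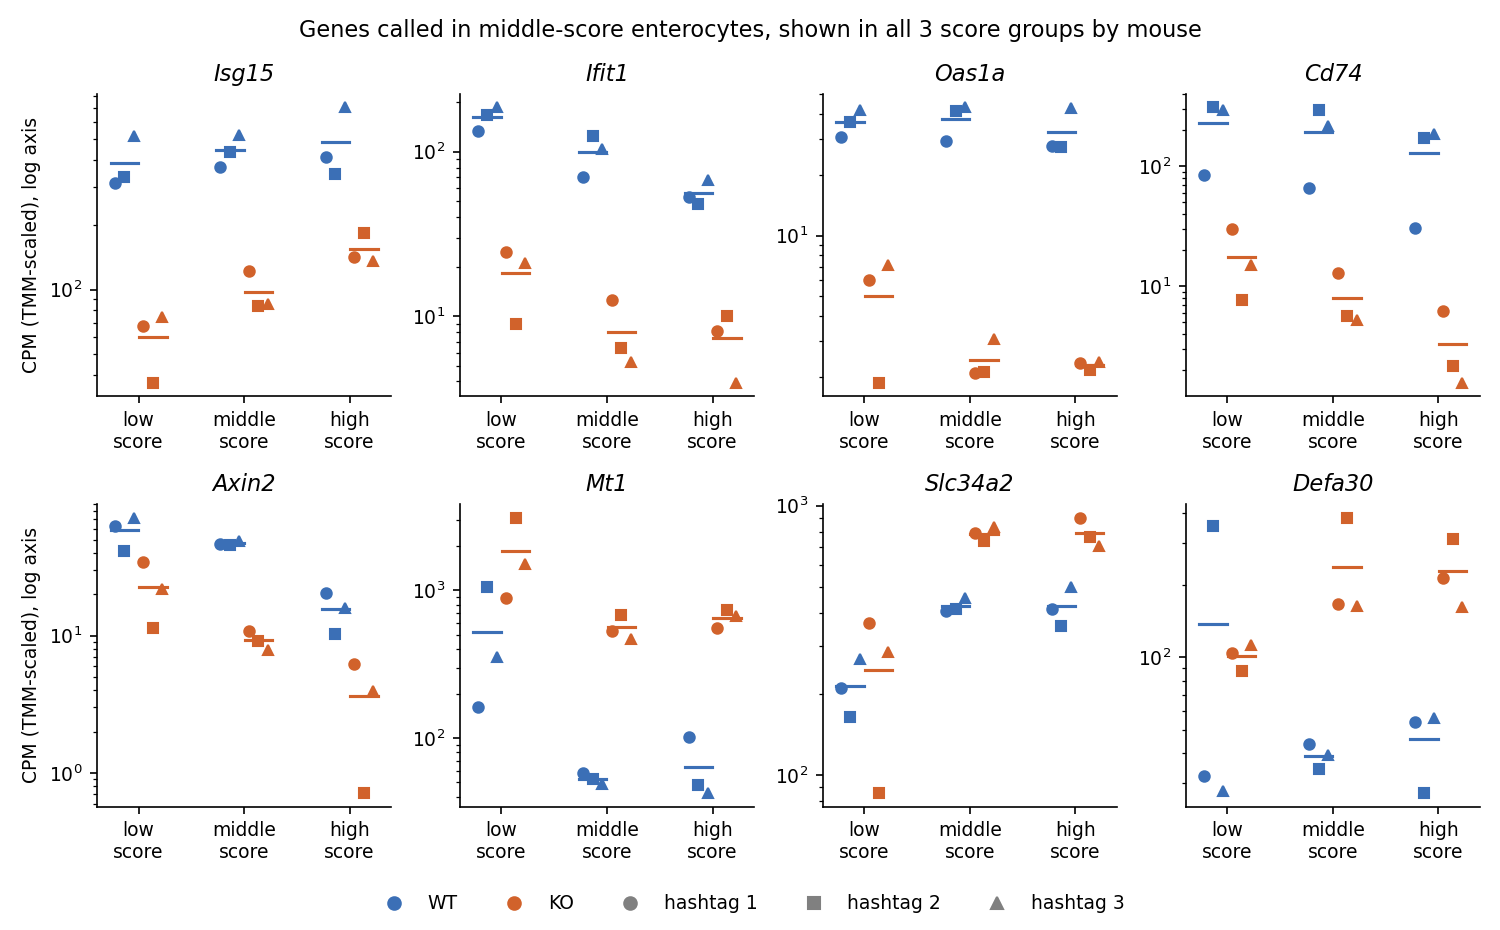
Scaled CPM (log axes) of 8 genes in low-, middle- and high-score enterocytes, 1 point per mouse (n = 3 WT, blue, and 3 KO, orange), with bars at genotype means and a symbol for each hashtag number. In the middle-score cells no WT mouse overlaps a KO mouse for any of the 8 genes, while Mt1, Slc34a2 and Defa30 overlap in low-score cells.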

How the data were processed

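Raw UMI counts per gene and hashtag were deposited by the authors for 1 WT and 1 KO library, and Cell Ranger 7.0.1, mm10 and Seurat 4.1.0 are named in the submitters' processing notes. Of 2 independent experiments named in the labels, RUN1 was analysed here. The libraries held 102915321 (WT) and 110960113 (KO) gene UMIs in 10453 and 7370 barcodes, of which 5563 and 4028 passed the limits. Mice were assigned with HTODemux (Seurat 5.3.0, quantile 0.99). The members, gene lists and tests were chosen with earlier results of these data known. UMI counts were summed per mouse and tested with edgeR 4.0.16 in R 4.3.3 (quasi-likelihood F test, TMM, filterByExpr, Benjamini-Hochberg over all genes tested, threshold 0.05), and genotype by score group was tested with mouse and group in the model. The steps were tested on simulated data. For differences of 1 on the log2 scale the genotype test in middle-score cells recovered 94%. It also made 18 false calls among the unchanged genes of the 7433 run. Differences were planted only in genes with more UMIs, so the recovered shares do not cover genes of few UMIs. The test between groups recovered 18% of differences of 1 against low-score and 15% against high-score cells, so it would miss most differences of that size. For differences of 2 it recovered 97% and 94%. Single-gene levels of 1 section come from 1 scaling: the middle-score sums alone, or the 18 sums of 3 groups together for comparisons along the score.

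Genes named were the 4 markers, the 10 lowest and 10 highest log2 fold changes among called genes with at least 20 CPM in a genotype and no overlap, from each list the 4 most abundant and up to 4 of smallest p, 5 genes of smallest p per group contrast, and 10 peaks and 10 troughs along the score with at least 50 CPM. Alternatives were DESeq2 1.42.0, RLE size factors, no count filter, other cell selections and hashtag rules, thinning, a replicate block and leaving out mice. Intervals of cells assigned no hashtag are exact Poisson and cover counting error only. Promoters are RefSeq sequences matched by symbol. Some genes that count in the lists are not reported here by name.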

Additional observations from a re-analysis of the deposited data

How the results depend on the processing

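The 408 genes called between genotypes became 696 without the count filter (401 of the 408 among them), 171 with cells thinned to 2000 UMIs (140) and 82 with at most 15% mitochondrial UMIs (74). The last 2 leave fewer genes and fewer cells or UMIs to test. Leaving out 1 mouse gave 194 to 415 calls, with 194 without WT3, 229 without KO1 and 257 without KO2, and leaving out WT2 and KO2 together gave 337. DESeq2 called 325, RLE size factors 410, a narrower middle of the score 326, libraries ranked apart 507, Duox2-high cells kept 339 and the hashtag ratio 418. The test of middle-score against low-score differences called 60 genes without the count filter and 1 by DESeq2, and that against high-score differences 2 without the filter, all 0 in the main setting and from 0 to 0 when single mice were left out. The cause was not tested. S100g, at −0.11 and not called, turned to 1.58 on the log2 scale and was called with thinning, and Cybrd1, at −1.76, turned to 0.67 with at most 15% mitochondrial UMIs. Of 74 named genes called, 26 kept their call in each of the 17 alternatives that could be fitted for them, and 25 of 131 not called passed in some. Treating equal hashtag numbers as a replicate block gave 537 calls, 406 of them shared. The labels state no pairing, so the numbers were not taken to pair mice in the main fit. Deviations from the genotype means correlated at 0.12, 0.09 and 0.23 across 4672 genes for numbers 1, 2 and 3. Between unequal numbers they correlated at −0.19 to 0.06, so each mouse correlated best with its own number. Whether the numbers mark pairs was not tested. Sums of 1232283 to 2642589 UMIs per mouse make a gene at 1 CPM rest on few UMIs.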

Other observations

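Middle-score cells assigned no hashtag, 384 WT and 252 KO, entered no main comparison between mice. They came from the same pools and mice as the cells compared above, so they are not an independent set. With the leading hashtag at least 3 times the next, WT1 to WT3 had 201, 142 and 460 middle-score cells against 185, 117 and 274. KO1 to KO3 had 287, 200 and 271 against 233, 117 and 207. Among WT mice the gain was largest in WT3. The share of each mouse in the sums below was not tested. Each genotype's sum is 1 value, in CPM without scaling, with an exact Poisson 95% interval for counting error. Isg15 stood at 443 CPM (416 to 472) in WT and 121 CPM (106 to 137) in KO cells, and Cd74 at 201 CPM (183 to 221) and 8.50 CPM (4.95 to 13.6). Mt1 stood at 40.5 CPM (32.5 to 49.8) in WT and 552 CPM (520 to 585) in KO cells. Axin2 stood at 52.3 CPM (43.2 to 62.8) in WT and 12.99 CPM (8.49 to 19.0) in KO cells. The phosphate transporter Slc34a2 stood at 490 CPM (461 to 520) and 925 CPM (884 to 969), and Defa30 at 42.3 CPM (34.2 to 51.8) and 221 CPM (201 to 243). Sis was closer between the libraries, at 58.7 CPM (49.0 to 69.7) in WT and 77.5 CPM (65.7 to 90.7) in KO cells, with overlapping intervals.

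Genes with the smallest p for a change of the genotype difference along the score included Slc17a5, the lysosomal exporter of sialic acid, whose KO minus WT log2 difference was larger in middle-score than in low-score cells by 1.17 (SE 0.23, unadjusted p = 0.000223, adjusted p = 0.613 by edgeR). Wtap, a subunit of the RNA adenosine methylation complex, had a difference larger by 0.77 in middle-score than in high-score cells (SE 0.18, unadjusted p = 0.000927, adjusted p = 1 by edgeR). Neither passed the correction.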
